A study of Ciona robusta with 6 samples.

Results

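The genes described here are 6 gene models of the tunicate *Ciona robusta*, out of 15232 in the count table, picked by their gene model ID. They are *Adra2* (KH2013:KH.C7.131), named after alpha-2 adrenergic receptors, the *ADRA2A* match (KH2013:KH.C11.155), *HRH1* (KH2013:KH.C10.464), named after a histamine receptor, *HTR2B* (KH2013:KH.C10.6), named after a serotonin receptor, *CHRM1/2/4/5* (KH2013:KH.C11.593), a muscarinic acetylcholine receptor, and *Rgs19/20* (KH2013:KH.C1.314), of the RGS family, whose members regulate G proteins. The study asked which genes act downstream of the proneural transcription factor Neurog in the bipolar tail neurons (BTNs), a small set of migrating neurons along the tail nerve cord. Cells of the BTN lineage were sorted at 9.5 hpf (20°C), and 6 RNA-seq libraries were made, 2 in each of 3 groups. In Neurog libraries the embryos carried a plasmid in which *Neurog* regulatory DNA drove Neurog itself. In Neurog:WRPW libraries the same DNA drove a fusion of Neurog to the WRPW repressor motif, made to interfere with Neurog, and in lacZ libraries it drove beta-galactosidase as a control. Embryos of all 3 groups also carried a red or blue fluorescent reporter under *Neurog* regulatory DNA, which served for sorting with no counterselection. Plasmids were electroporated and are taken up by only part of the cells, and the lacZ libraries hold future epidermal cells of the lineage beside the BTNs. The study's text calls the replicates of a condition biologically independent, and the labels do not say from which animals or days they came.

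Amine and muscarinic receptors are membrane proteins that, once bound by their ligand, switch on G proteins inside the cell. In vertebrates, alpha-2 adrenergic receptors act through Gi/o proteins, which lower cyclic AMP and dampen transmitter release, H1 histamine receptors act through Gq and phospholipase C, and muscarinic receptors use one or the other route by subtype. RGS proteins end the signal by speeding up GTP hydrolysis on the G protein, and in mammals RGS19 and RGS20 do so on members of the Gi/o/z class. In mammals, alpha-2 adrenergic and muscarinic receptors are also found on sensory neurons of the dorsal root ganglia, with which BTNs have been compared.

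Of the 6 genes, *Adra2* alone stands in the 134 rows held of the study's in situ hybridization table, as expressed in BTNs. For *Rgs19/20* the study read BTN expression from images in a public database, among genes it had picked for their differences between these libraries. The template of its probe is shown because *Adra2* has the largest differences below; its match to the gene model is taken from that table. The first 300 bases of the 399 held are printed, 5′ to 3′, with no part in capitals since none is singled out.
*Adra2* probe template: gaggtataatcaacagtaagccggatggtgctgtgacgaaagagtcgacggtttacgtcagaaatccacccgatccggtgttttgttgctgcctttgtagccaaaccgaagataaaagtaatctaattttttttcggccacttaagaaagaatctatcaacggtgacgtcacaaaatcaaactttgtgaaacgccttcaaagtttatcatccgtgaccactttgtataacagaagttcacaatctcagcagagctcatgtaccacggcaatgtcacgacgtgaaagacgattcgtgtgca
Read as codons on the printed strand, frame 3 held 0 stop codons in 132 codons over the 399 bases, against 7 in frame 1 and 8 in frame 2. GC content of the printed stretch was 43.0%.

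The names follow the study's gene names or its listed sequence matches to human proteins, and they differ in how far they can be taken. The matches listed for *Adra2* are *ADRA2A*, *ADRA2B* and the dopamine receptor gene *DRD2*, and those for *CHRM1/2/4/5* are *CHRM1*, *CHRM3* and *CHRM5*. *Rgs19/20* matches *RGS17*, *RGS19* and *RGS20*. For the *ADRA2A* match the list is mixed, with a muscarinic receptor gene (*CHRM3*) and a melanocortin receptor gene (*MC5R*) beside *ADRA2A*. All matches of the gene named *HTR2B* are adenosine receptor genes (*ADORA1*, *ADORA2A* and *ADORA2B*), and for *HRH1* no human match is listed. The names *HTR2B* and *HRH1* are kept below as labels only, and the ligands of these receptors in *Ciona* are not known from these data.

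Libraries held 10315548 to 24499397 counts, the smallest being Neurog:WRPW replicate 2, which by the study's methods also came from the fewest sorted cells. Levels below are CPM (counts scaled by library size, with TMM factors). Tests covered the 12253 genes that passed 1 CPM in 2 libraries or more, among them 6 of the 6 described. *Neurog* (KH.C6.129), the overexpressed gene, reached 3934 and 3975 CPM in Neurog libraries, 109 and 190 CPM in Neurog:WRPW libraries, and 90.1 and 134 CPM in lacZ libraries. It was high in both Neurog libraries, while the libraries labelled Neurog:WRPW overlapped with lacZ, so its level does not check that label. Beside *Rgs19/20*, 5 genes that the study names as expressed in BTNs (*Asic*, *Onecut*, *alpha-Tubulin*, *Slc35g2* and *Bassoon-like*) were detected in every library. For each of them the Neurog libraries lay above, and the Neurog:WRPW libraries below, both of lacZ, an order that the study's choice of these genes on the same libraries favours. Their summed level, of which *alpha-Tubulin* alone made 90.0% to 97.3%, was 10937 and 6226 CPM in Neurog libraries, 1066 and 749 CPM in Neurog:WRPW libraries, and 2473 and 1506 CPM in lacZ libraries. By the study's account, Neurog turns all cells of the lineage into BTNs, and Neurog:WRPW abolishes BTN fate. With lacZ, only a few cells of each embryo become BTNs. Cell composition thus differs between the groups by that account, and its part in the differences below was not tested. These are bulk samples, so fewer cells of a type and less RNA per cell cannot be told apart in any result below.

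*Adra2*, *HRH1*, *CHRM1/2/4/5* and *Rgs19/20* rose in Neurog vs. lacZ, by 3.9-fold to 11.8-fold, and *Adra2* and *HRH1* fell in Neurog:WRPW vs. lacZ. A gene is said here to have risen or fallen where its LogFC (log2 fold change) was beyond 0.6 or -0.6 and its unadjusted p was under 0.05 in edgeR's quasi-likelihood test. In Neurog vs. lacZ, 4 of the 6 genes rose and 0 fell, while 4.36% of all genes tested rose and 1.83% fell. In Neurog:WRPW vs. lacZ, 2 of 6 fell and 0 rose, while 1.19% of all genes fell and 0.318% rose. In Neurog vs. Neurog:WRPW, 5 of 6 were higher in Neurog and 0 lower, against 7.08% and 3.49% of all genes. Of the 6, *Adra2* and *HRH1* alone passed in both directions in this fit, up in Neurog and down in Neurog:WRPW libraries, as did 0.473% of all genes (58 in number). The study's own edgeR calls at the same thresholds place *Rgs19/20* among the genes that passed in both. The first and second comparisons share the lacZ libraries, so they are not independent of each other. Since the 6 were chosen with earlier results of these data known, their shares are not on equal terms with those of all genes. Among in situ genes listed in other tissues, 7 of 13 fell in Neurog:WRPW vs. lacZ and 1 rose (median LogFC -1.06). Among those with little or no in situ signal, 6 of 28 fell and 1 rose (median LogFC -1.28). How much of the excess over all genes comes from this choice was not tested. The direction in Neurog vs. lacZ also follows in part from how the genes could be chosen, since gene names were at hand mainly from a table ordered by LogFC in that comparison, which ended well above 0.

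After Benjamini-Hochberg adjustment over all 12253 genes, edgeR's quasi-likelihood test gave 0 genes under an adjusted p of 0.05 in Neurog vs. lacZ, where 771 genes (6.29%) had an unadjusted p under 0.05. It also gave 0 in Neurog:WRPW vs. lacZ, where 191 genes (1.56%) had an unadjusted p under 0.05. In Neurog vs. Neurog:WRPW it gave 5 genes (0.0408%), of which *HRH1* was one. Among the 6 genes, DESeq2's Wald test and edgeR's exact test each put *Adra2* and *HRH1* under an adjusted p of 0.05 in Neurog vs. lacZ, and none of the 6 in Neurog:WRPW vs. lacZ. Over all genes they put 220 and 157 under it in Neurog vs. lacZ. In Neurog vs. Neurog:WRPW each put 4 of the 6 under it, and 514 and 394 of all 12253 genes. A fit with the replicate number as a block is given in the last part of the report. In Neurog vs. lacZ the median LogFC of the 6 genes was 1.99, against -0.03 over all genes. In Neurog:WRPW vs. lacZ it was -1.33, against -0.02, and in Neurog vs. Neurog:WRPW 3.28, against -0.04. The limit set by how the 6 genes were chosen holds for these medians too.

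**Figure D1:**
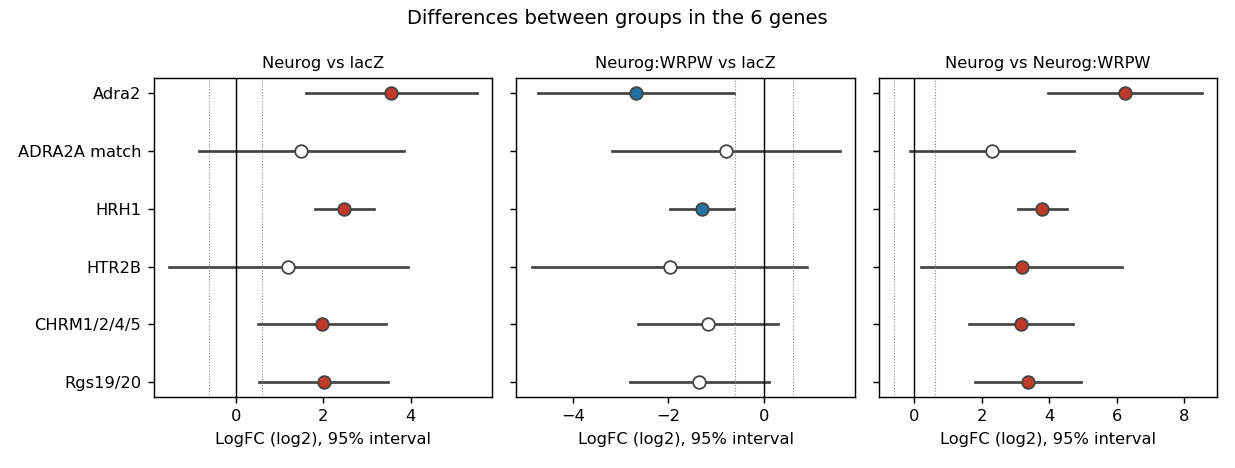
LogFC (log2, horizontal axis) of the 6 genes in the 3 comparisons, with bars for the 95% interval from edgeR's fit; filled points (red up, blue down) are past LogFC 0.6 or -0.6 with unadjusted p under 0.05, open points are not, and dotted lines mark 0.6 and -0.6. *Adra2* has the LogFC farthest from 0 in each comparison (3.56, -2.68 and 6.24), and *HRH1* has the narrowest intervals.

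*Adra2* had the LogFC farthest from 0 among the 6 genes in each of the 3 comparisons. Its level was 109 and 78.0 CPM in Neurog libraries (2008 and 1390 counts), 2.06 and 0.111 CPM in Neurog:WRPW libraries (39 counts and 1 count), and 10.7 and 5.14 CPM in lacZ libraries (193 and 117 counts). Every Neurog library lay above every lacZ library, and every Neurog:WRPW library lay below. The single count in Neurog:WRPW replicate 2 has an exact Poisson 95% interval of 0.00281 to 0.619 CPM, which covers counting error only. Means were 93.6 ± 22.1 CPM with Neurog, 1.09 ± 1.38 CPM with Neurog:WRPW and 7.93 ± 3.95 CPM with lacZ (SD, n = 2 each).

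*Adra2* was upregulated with a LogFC of 3.56 in Neurog vs. lacZ (SE 0.81, 95% interval 1.61 to 5.52, unadjusted p = 0.00401, adjusted p = 0.425 in edgeR's quasi-likelihood test). It was downregulated in Neurog:WRPW vs. lacZ, with a LogFC of -2.68 (SE 0.85, 95% interval -4.73 to -0.63, unadjusted p = 0.0182, adjusted p = 1.00 in the same edgeR test). Neurog and Neurog:WRPW libraries differed by a LogFC of 6.24 (SE 0.95, unadjusted p = 0.000469, adjusted p = 0.0858 in edgeR). The sizes of both differences from Neurog:WRPW rest on 39 counts and 1 count: without Neurog:WRPW replicate 1 the LogFC was 9.63 in Neurog vs. Neurog:WRPW and -6.06 in Neurog:WRPW vs. lacZ, and without Neurog:WRPW replicate 2 it was 5.50 and -1.94 in the same comparisons. The fall lost its call without lacZ replicate 1, the higher of the lacZ libraries (LogFC -2.05, unadjusted p = 0.0851 in edgeR), and with the Neurog libraries out of the fit (LogFC -2.76, unadjusted p = 0.0568).

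**Figure D2:**
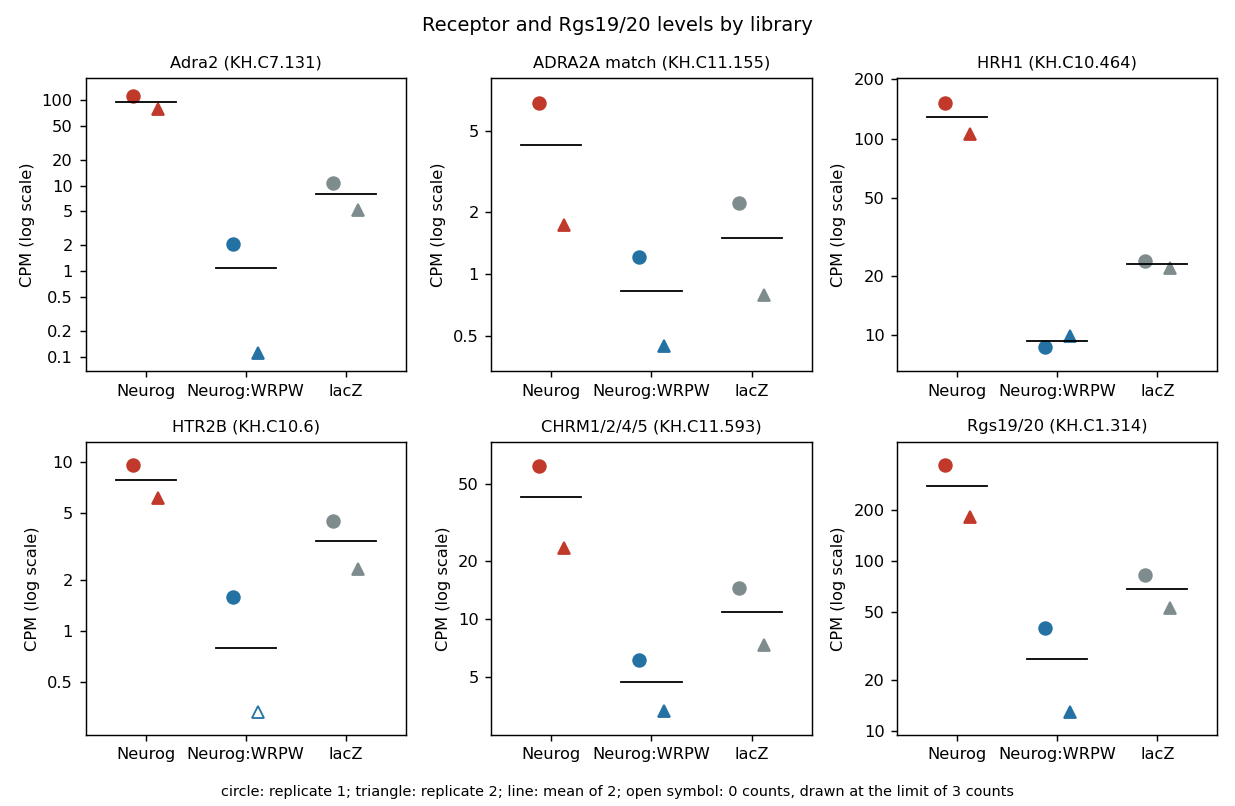
Level of each gene in each library, in CPM on a log scale (vertical axis), by group (horizontal axis); circles are replicate 1, triangles replicate 2, lines the mean of the 2, and the open triangle of *HTR2B* is a library with 0 counts drawn at the limit of 3 counts (0.334 CPM). For 5 of the 6 genes both Neurog libraries lie above, and both Neurog:WRPW libraries below, every lacZ library, the exception being the *ADRA2A* match.

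The *ADRA2A* match, the second gene with an adrenergic receptor among its human matches, had few counts and passed against lacZ in neither comparison. It had 6.80 and 1.74 CPM in Neurog libraries (125 and 31 counts), 1.214 and 0.445 CPM in Neurog:WRPW libraries (23 and 4 counts), and 2.22 and 0.790 CPM in lacZ libraries (40 and 18 counts). Both Neurog and Neurog:WRPW libraries overlapped with lacZ, the Neurog libraries lay above the Neurog:WRPW libraries, and replicate 1 held the higher value in each group. Against lacZ, the LogFC was 1.51 with Neurog (SE 0.97, 95% interval -0.83 to 3.84, unadjusted p = 0.168 in edgeR) and -0.80 with Neurog:WRPW (SE 0.99, 95% interval -3.19 to 1.58, unadjusted p = 0.445). Without Neurog replicate 1 the LogFC with Neurog was 0.26, and without lacZ replicate 1 it was 2.44. The intervals are wide enough to hold a change of the size seen in *HRH1* as well as none.

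*HRH1* was the most tightly measured of the 6 genes. It had 152 and 105 CPM in Neurog libraries (2801 and 1877 counts), 8.71 and 9.89 CPM in Neurog:WRPW libraries (165 and 89 counts), and 24.0 and 21.9 CPM in lacZ libraries (431 and 500 counts). No groups overlapped, and the replicates of Neurog:WRPW and of lacZ lay close to each other. Means were 129 ± 33.3 CPM, 9.30 ± 0.836 CPM and 22.9 ± 1.42 CPM in the order Neurog, Neurog:WRPW and lacZ (SD, n = 2 each).

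Its LogFC was 2.49 in Neurog vs. lacZ (SE 0.28, 95% interval 1.81 to 3.17, unadjusted p = 8.73e-05, adjusted p = 0.178 in edgeR's quasi-likelihood test), the 6th smallest p of all genes. In Neurog:WRPW vs. lacZ it was -1.30 (SE 0.28, 95% interval -1.97 to -0.64, unadjusted p = 0.00286, adjusted p = 1.00 in edgeR), the 5th smallest p. In Neurog vs. Neurog:WRPW it was 3.79 (SE 0.30, 95% interval 3.07 to 4.52, adjusted p = 0.0313 in edgeR), a 13.9-fold difference. That adjusted p of edgeR's test was over 0.05 with lacZ out of the fit (0.0897) and without any one of the 6 libraries (0.0800 to 0.181), and ranged from 4.13e-24 with DESeq2 to 0.181 over all 13 alternatives, while the LogFC stayed between 3.54 and 4.03.

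*HTR2B*, the gene with adenosine receptor matches, also had few counts. Its level was 9.63 and 6.12 CPM in Neurog libraries (177 and 109 counts), 1.58 and 0 CPM in Neurog:WRPW libraries (30 and 0 counts), and 4.50 and 2.33 CPM in lacZ libraries (81 and 53 counts). The groups did not overlap. The 0 in Neurog:WRPW replicate 2 has an exact Poisson 95% interval up to 0.410 CPM, and 3 counts there would be 0.334 CPM. Against lacZ, the LogFC was 1.207 with Neurog (SE 1.13, 95% interval -1.52 to 3.93, unadjusted p = 0.324 in edgeR) and -1.98 with Neurog:WRPW (SE 1.20, 95% interval -4.87 to 0.91, unadjusted p = 0.147), so neither passed. It was higher in Neurog than in Neurog:WRPW (LogFC 3.18, SE 1.24, unadjusted p = 0.0400, adjusted p = 0.424 in edgeR). The LogFC was 10.08 without Neurog:WRPW replicate 1, where the remaining library has 0 counts and the value depends on the prior count of the fit, and 2.31 without Neurog:WRPW replicate 2. The call was lost without Neurog replicate 1 (LogFC 2.87), Neurog replicate 2 (3.48), lacZ replicate 1 (3.20) or lacZ replicate 2 (3.19), and with lacZ out of the fit (3.21).

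*CHRM1/2/4/5*, the muscarinic receptor, had 62.0 and 23.2 CPM in Neurog libraries (1140 and 414 counts), 6.12 and 3.34 CPM in Neurog:WRPW libraries (116 and 30 counts), and 14.5 and 7.29 CPM in lacZ libraries (261 and 166 counts). The 3 groups did not overlap, although lacZ replicate 2 lay close above Neurog:WRPW replicate 1. It was upregulated with a LogFC of 1.97 in Neurog vs. lacZ (SE 0.60, 95% interval 0.51 to 3.43, unadjusted p = 0.0159, adjusted p = 0.563 in edgeR's quasi-likelihood test). In Neurog:WRPW vs. lacZ the LogFC was -1.18 (SE 0.61, 95% interval -2.65 to 0.29, unadjusted p = 0.0970 in edgeR) and did not pass. The rise lost its call without Neurog replicate 1 (LogFC 1.14, unadjusted p = 0.117) and without lacZ replicate 2 (LogFC 1.56, unadjusted p = 0.0875).

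*Rgs19/20* was the most abundant of the 6 genes per kb of gene model. Its level was 367 and 182 CPM in Neurog libraries (6738 and 3240 counts), 39.97 and 12.9 CPM in Neurog:WRPW libraries (757 and 116 counts), and 82.9 and 53.0 CPM in lacZ libraries (1491 and 1207 counts). The groups did not overlap, and replicate 1 was higher in each. It was upregulated with a LogFC of 2.01 in Neurog vs. lacZ (SE 0.61, 95% interval 0.53 to 3.50, unadjusted p = 0.0155, adjusted p = 0.561 in edgeR's quasi-likelihood test). In Neurog:WRPW vs. lacZ the LogFC was -1.35 (SE 0.60, 95% interval -2.81 to 0.11, unadjusted p = 0.0642 in edgeR), just short of a call. The study counts both the rise and this fall as past the same thresholds, by an edgeR test it does not name. DESeq2's Wald test (unadjusted p = 0.0285), edgeR's exact test (unadjusted p = 0.0356), the fit with no filter on low counts (unadjusted p = 0.0493) and the fit without Neurog:WRPW replicate 1 (LogFC -2.40, unadjusted p = 0.00808) did call this fall, and the rise was lost without Neurog replicate 1 (LogFC 1.47) or lacZ replicate 2 (LogFC 1.73).

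Counted by library rather than by test, 5 of the 6 genes were higher in both Neurog libraries than in both lacZ libraries, where 18.6% of all genes were. Likewise both Neurog:WRPW libraries lay below both lacZ libraries for 5 of 6, as they did for 13.7% of all genes, and 6 of 6 were higher in both Neurog libraries than in both Neurog:WRPW libraries, where 20.8% were. The full order of Neurog over lacZ over Neurog:WRPW in every library held for *Adra2*, *HRH1*, *HTR2B*, *CHRM1/2/4/5* and *Rgs19/20*, and for 3.97% of all genes (486). *HTR2B* keeps this order although neither of its tests against lacZ passed. These shares too are not on equal terms with those of all genes, given how the 6 were chosen.

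To compare the genes with each other, CPM was divided by the length of the gene model in kb. *Rgs19/20* came first in each group, at 112 ± 53.3 CPM per kb in Neurog libraries, 10.8 ± 7.81 in Neurog:WRPW libraries and 27.7 ± 8.62 in lacZ libraries (SD, n = 2 each). *Adra2* came next in Neurog libraries at 53.2 ± 12.6 CPM per kb, but fell in the order to 0.617 ± 0.783 in Neurog:WRPW libraries, below *HRH1*, *CHRM1/2/4/5* and *HTR2B*, and to 4.51 ± 2.25 in lacZ libraries, below *HRH1* and *CHRM1/2/4/5*. *HRH1* stood at 46.2 ± 11.9, 3.34 ± 0.300 and 8.23 ± 0.508 CPM per kb in the same groups, and *CHRM1/2/4/5* at 18.7 ± 12.04, 2.08 ± 0.866 and 4.78 ± 2.24. *Adra2* and *HRH1* did not differ beyond their spread in Neurog libraries, nor did *CHRM1/2/4/5* and *Adra2* in lacZ libraries. The low end held *HTR2B* (6.44 ± 2.03, 0.648 ± 0.917 and 2.79 ± 1.26 CPM per kb) and the *ADRA2A* match (2.89 ± 2.42, 0.562 ± 0.368 and 1.02 ± 0.686), which with *Adra2* could not be ordered in Neurog:WRPW libraries.

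Since the groups differ in the level of genes listed in BTNs, each gene was also set against the summed level of the 47 other genes that the in situ table lists there. The study found many of its genes in other neurons of the central nervous system too. The ratios below are therefore not levels per BTN. This sum was 11687 and 6355 CPM in Neurog libraries, 1398 and 738.2 CPM in Neurog:WRPW libraries, and 2615 and 1533 CPM in lacZ libraries. The gene with the highest mean level among them, *Dcdc2* (KH.C14.65), made 9.69% to 22.9% of the sum by library. The study picked those genes from these libraries, so the sum is not independent of the comparison. Of these genes, 6 were at 0 in Neurog:WRPW replicate 2 and none elsewhere.

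*Adra2* still differed by group on this scale, at 9.35 and 12.3 CPM per 1000 CPM of BTN genes in Neurog libraries, 1.47 and 0.151 in Neurog:WRPW libraries, and 4.10 and 3.35 in lacZ libraries. Its 3 groups did not overlap, although the Neurog:WRPW values rest on 39 counts and 1 count. *Rgs19/20* had 31.4 and 28.6 in Neurog libraries, 28.6 and 17.5 in Neurog:WRPW libraries, and 31.7 and 34.6 in lacZ libraries, so 5 of its 6 libraries lay between 28.6 and 34.6, with lacZ at the upper end, and Neurog:WRPW replicate 2 lay below. *CHRM1/2/4/5* had 5.31 and 3.66 in Neurog libraries, 4.38 and 4.52 in Neurog:WRPW libraries, and 5.55 and 4.75 in lacZ libraries, and 3 of the other 4 libraries lay between its Neurog libraries. *HRH1* had 13.0 and 16.6 in Neurog libraries, 6.23 and 13.4 in Neurog:WRPW libraries, and 9.16 and 14.3 in lacZ libraries, with all groups overlapping.

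*HTR2B* ran the other way in Neurog vs. lacZ, at 0.824 and 0.963 CPM per 1000 CPM of BTN genes in Neurog libraries, 1.13 and 0 in Neurog:WRPW libraries, and 1.72 and 1.52 in lacZ libraries. Both Neurog libraries were thus below both lacZ libraries on this scale and above them in CPM. The *ADRA2A* match had 0.582 and 0.274 in Neurog libraries, 0.869 and 0.602 in Neurog:WRPW libraries, and 0.850 and 0.515 in lacZ libraries, with overlap of Neurog and lacZ. Both of its Neurog libraries lay below both Neurog:WRPW libraries on this scale, the reverse of their order in CPM. The Neurog:WRPW values rest on 23 and 4 counts. With 2 libraries per group, these ratios are given as a description without a test.

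**Figure D3:**
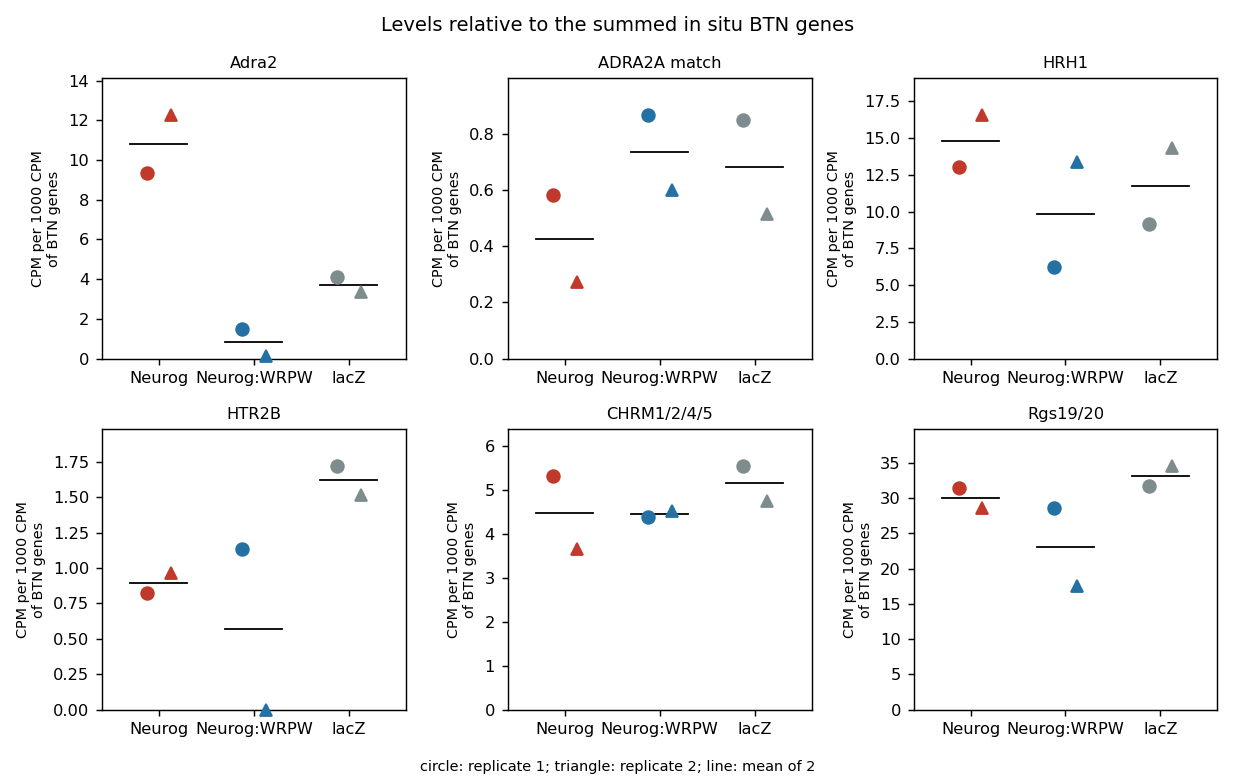
Level of each gene per 1000 CPM of the 47 other in situ BTN genes (vertical axis, linear from 0), by group (horizontal axis); circles are replicate 1, triangles replicate 2, lines the mean of the 2. The groups of *Adra2* stay apart (9.35 and 12.3 with Neurog, 1.47 and 0.151 with Neurog:WRPW, 4.10 and 3.35 with lacZ), and no other of the 6 genes keeps the order of Neurog over lacZ over Neurog:WRPW in every library.

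Genes that mark other cells moved in the same direction. The 15 genes listed by the study in other parts of the central nervous system summed to 1770 and 1558 CPM in Neurog libraries, 255.9 and 251.6 CPM in Neurog:WRPW libraries, and 467 and 470.0 CPM in lacZ libraries. The 13 listed in other tissues summed to 711 and 635 CPM in Neurog libraries, 143 and 118 CPM in Neurog:WRPW libraries, and 275 and 248 CPM in lacZ libraries. These lists too were chosen by the study on these libraries, and their part in the levels of the 6 genes was not tested.

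Other genes of amine and acetylcholine signaling were gathered in 4 lists from the same gene names, which favour genes that rise with Neurog, so nothing is read from how many rose. Over all genes tested 4.36% rose in Neurog vs. lacZ and 1.19% fell in Neurog:WRPW vs. lacZ. Of 8 genes listed as other amine and muscarinic receptors, 3 rose in Neurog vs. lacZ and 0 changed in Neurog:WRPW vs. lacZ. The list includes the *MOODY* match (KH.L152.21), whose label names no amine or muscarinic receptor (LogFC 0.75 with Neurog and 0.26 with Neurog:WRPW). Their median LogFC was 1.23 with Neurog and 0.26 with Neurog:WRPW. In Neurog:WRPW vs. lacZ 7 of the 8 had a LogFC above 0, as did 48% of all genes tested, while 6 of the 6 genes described had one below 0, as did 52%. The 6 were chosen with earlier results of these data known, so this contrast is not on equal terms and was not tested. The 3 that rose were the muscarinic receptor gene *CHRM3/5* (KH.L37.26, LogFC 2.67, SE 0.76), the *HTR2A* match (KH.C3.900, LogFC 1.67, SE 0.63) and *DRD1*, of which the first and second were named after their values were seen. The dopamine receptor gene *DRD1* (KH.C7.62) had 62.2 and 76.8 CPM in Neurog libraries, 30.0 and 46.0 CPM in Neurog:WRPW libraries, and 27.7 and 35.6 CPM in lacZ libraries. It rose in Neurog vs. lacZ (LogFC 1.14, SE 0.31), and its Neurog:WRPW libraries overlapped with lacZ (LogFC 0.26, SE 0.31). The one receptor of this list below 0 with Neurog:WRPW was a further muscarinic match, KH.S691.1 (LogFC -1.66, SE 1.30, unadjusted p = 0.246 in edgeR).

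Of 4 genes listed for making, carrying or breaking down these ligands, 1 rose in Neurog vs. lacZ (4.36% of all genes) and 0 fell in Neurog:WRPW vs. lacZ (1.19% of all genes). *TH* (KH.C2.252), tyrosine hydroxylase, which begins catecholamine synthesis, had 13.2 and 7.91 CPM in Neurog libraries, 1.37 and 0.111 CPM in Neurog:WRPW libraries, and 1.89 and 1.98 CPM in lacZ libraries. It rose in Neurog vs. lacZ (LogFC 2.44, SE 0.88, unadjusted p = 0.0304 in edgeR) and did not pass in Neurog:WRPW vs. lacZ (LogFC -1.26, SE 0.89, unadjusted p = 0.205). The gene with matches to vesicular transporters and choline acetyltransferase (KH.C1.498) had a larger LogFC of 2.97 with Neurog, but an SE of 1.53 (unadjusted p = 0.0981 in edgeR). The list also counts the *MOXD1* match (KH.C1.1020), whose part in making these ligands is not known from these data. It passed in neither comparison with lacZ (LogFC 0.78 with Neurog and 0.03 with Neurog:WRPW).

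Of 10 G-protein subunits and effectors, 6 rose in Neurog vs. lacZ (4.36% of all genes) and 2 fell in Neurog:WRPW vs. lacZ (1.19% of all genes). The 2 that fell were *Gng* (KH.L170.96), a G-protein gamma subunit, and *ADCY5/6* (KH.C14.320), an adenylyl cyclase, which makes cyclic AMP. *Gng* had 158 and 103 CPM in Neurog libraries, 10.7 and 3.56 CPM in Neurog:WRPW libraries, and 28.3 and 16.3 CPM in lacZ libraries, with a LogFC of 2.55 (SE 0.57) with Neurog and -1.61 (SE 0.56) with Neurog:WRPW. *ADCY5/6* fell by 0.81 on the log2 scale (SE 0.32) in Neurog:WRPW vs. lacZ and had a LogFC of 0.74 (SE 0.32, unadjusted p = 0.0571 in edgeR) in Neurog vs. lacZ, which did not pass. The phospholipase C gene *PLCB4* (KH.L138.1) rose in Neurog vs. lacZ (LogFC 1.34, SE 0.37) and had a LogFC of -0.67 (SE 0.37) in Neurog:WRPW vs. lacZ, which did not pass.

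The 3 Gi/o alpha subunit genes that the study compares all rose in Neurog vs. lacZ (4.36% of all genes). In Neurog:WRPW vs. lacZ 0 of them fell (1.19% of all genes). *Gnai-related* (KH.C2.872) had 181 and 95.7 CPM in Neurog libraries, 19.6 and 14.7 CPM in Neurog:WRPW libraries, and 47.1 and 24.7 CPM in lacZ libraries. Its groups did not overlap, with a LogFC of 1.95 (SE 0.45) with Neurog and -1.06 (SE 0.45, unadjusted p = 0.0534 in edgeR) with Neurog:WRPW. The founding paralog (KH.C1.612) had 1258 and 895 CPM in Neurog libraries, 659 and 578 CPM in Neurog:WRPW libraries, and 747 and 591 CPM in lacZ libraries. Its LogFC was 0.69 with Neurog (SE 0.28, unadjusted p = 0.0454 in edgeR), close to both thresholds, and -0.11 with Neurog:WRPW (SE 0.27). The third paralog (KH.L96.27) had LogFC values of 1.37 (SE 0.39) with Neurog and 0.22 (SE 0.38) with Neurog:WRPW. A further *GNAI* match of the list (KH.C9.789), named after its values were seen, passed in neither comparison. Its LogFC was 2.53 with Neurog (SE 1.07, unadjusted p = 0.0536 in edgeR) and -0.50 with Neurog:WRPW (SE 1.04).

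Of 4 further regulators of receptor signaling, 3 rose in Neurog vs. lacZ (4.36% of all genes) and 0 fell in Neurog:WRPW vs. lacZ (1.19% of all genes). *ARRB1/2* (KH.C1.1125), an arrestin, which uncouples active receptors from G proteins, had LogFC values of 1.223 (SE 0.33) with Neurog and -0.71 (SE 0.33, unadjusted p = 0.0714 in edgeR) with Neurog:WRPW. *GRK4/5* (KH.L112.32), a kinase of active receptors, had 2.00 (SE 0.57) and -0.28 (SE 0.56), and *GPSM1/2* (KH.S215.11), a modulator that binds Gi/o subunits, 0.87 (SE 0.27) and -0.07 (SE 0.27). The other RGS gene, *RGS2/21/3* (KH.C9.235), had 1.31 (SE 0.66, unadjusted p = 0.0934 in edgeR) with Neurog and -0.45 (SE 0.67) with Neurog:WRPW, so it passed in neither. No gene of the 4 lists was under an adjusted p of 0.05 in edgeR's quasi-likelihood test in any of the 3 comparisons.

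**Figure D4:**
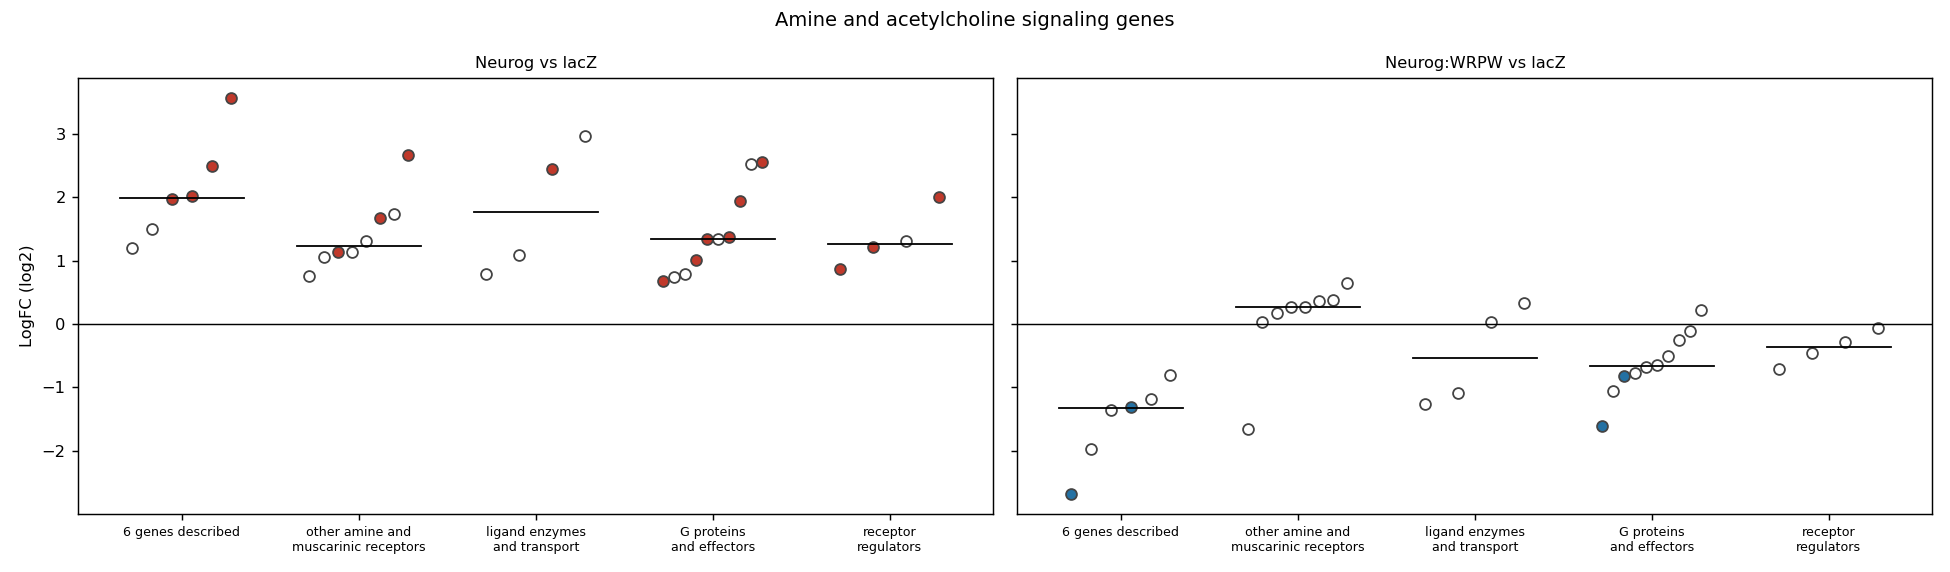
LogFC (log2, vertical axis) of the 6 genes and of the 4 lists (horizontal axis) in Neurog vs. lacZ, left, and Neurog:WRPW vs. lacZ, right; each point is a gene, filled where past LogFC 0.6 or -0.6 with unadjusted p under 0.05 (red up, blue down), and lines are list medians. On the left every point is above 0, which the choice of names largely fixes. On the right the 6 genes are all below 0 (median -1.33, 2 called) and 7 of the 8 other receptors are above 0 (median 0.26, 0 called). The 6 were chosen with earlier results of these data known, so this contrast is not on equal terms and was not tested.

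Likeness of profile was measured as the root mean square difference of log2 CPM centred on each gene's mean over the 6 libraries. Among the 6 genes, *CHRM1/2/4/5* and *Rgs19/20* were nearest each other (0.36, Pearson r = 0.979), and *Adra2* and the *ADRA2A* match were the farthest apart (1.92, r = 0.833). The libraries share group and depth differences, so these values are a description over 6 points.

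Among all genes tested, the nearest to *Adra2* were *Bhlh-tun2* (KH.C4.649), a basic helix-loop-helix gene (0.23, r = 0.996), and *Ncs* (KH.C1.1067), neuronal calcium sensor (0.30, r = 0.996). *HRH1* lay nearest to *Gpr22* (KH.L139.24), a further receptor of the same broad class (0.23, r = 0.991), and to *Syt7-related* (KH.C4.304), of the synaptotagmin family of vesicle calcium sensors (0.26, r = 0.989). For *Rgs19/20* they were *Scgn* (KH.C3.178), secretagogin, a calcium-binding protein (0.17, r = 0.994), and *Slc24a* (KH.L50.5), a sodium/calcium exchanger (0.23, r = 0.990). *CHRM1/2/4/5* was nearest to *Fastkd* (KH.L170.66; 0.14, r = 0.995) and *Neurotrimin* (KH.C10.274), a neural cell adhesion molecule (0.15, r = 0.993). *HTR2B* was nearest to *SGSM1/2* (KH.L147.11; 0.26, r = 0.986) and *Rbpms* (KH.L71.1), an RNA-binding protein (0.27, r = 0.984), and the *ADRA2A* match to the genes named *KLRB1* (KH.C2.572; 0.10, r = 0.995) and *ODF3* match (KH.C5.62; 0.18, r = 0.984).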

How the data were processed

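The authors mapped reads with STAR 2.5.2b, removed duplicate reads and counted reads over KH gene models with featureCounts. They deposited raw counts per gene model, 1 column per library with replicates not pooled, 10315548 to 24499397 per library. The removal of duplicates by position lowers the counts of abundant transcripts. Overlapping or antisense genes can share reads, since the sources used here do not give the strand setting, nor the assembly version. Libraries were assigned by their labels, and all 6 columns were used.

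From the counts, genes over 1 CPM in at least 2 libraries (12253 of 15232) were scaled by TMM and entered a joint fit of the 3 groups in edgeR 4.0.16 (R 4.3.3), with two-sided quasi-likelihood tests. Adjusted p-values follow Benjamini and Hochberg over all genes tested. The thresholds on LogFC and unadjusted p follow the study's choice. The common biological coefficient of variation came to 0.421, and the median SE of a LogFC to between 0.417 and 0.42. Profiles used log2 of CPM plus 0.5. Alternatives were other scaling, filters, DESeq2 1.42.0, edgeR's exact test, fits of only the groups compared, a replicate block and leaving out each library. Intervals from counts cover counting error only, since the reads carry no molecular identifiers.

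The members and lists were chosen with earlier results of these data known. Named genes were the 6 members, *Neurog*, up to 4 genes per list with the smallest p in Neurog:WRPW vs. lacZ, the 3 Gi/o paralogs, and the 2 nearest profiles per member. Gene names came from the 1118 rows held of a supplementary gene table and 134 of the in situ table, except KH.C1.612, which the study names in its text, and no KH ID could be matched in RefSeq. Figures were drawn with matplotlib 3.10.9.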

Additional observations from a re-analysis of the deposited data

How the results depend on the processing

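Of 234 values of a single gene under an alternative, 210 kept direction and side of the thresholds, 11 lost their call, 12 gained one, and 1 turned: the LogFC of the *ADRA2A* match in Neurog:WRPW vs. lacZ was 0.13 without lacZ replicate 1, against -0.80 with all libraries and -1.74 without Neurog:WRPW replicate 1. Leaving out 1 library at a time left 2 to 4 of the 6 genes called up in Neurog vs. lacZ (2 without Neurog replicate 1 or lacZ replicate 2), 1 to 4 called down in Neurog:WRPW vs. lacZ (4 if Neurog:WRPW replicate 1 was left out, 1 if lacZ replicate 1 was) and 4 to 5 called up in Neurog vs. Neurog:WRPW. With only the 2 groups compared, 1 of the 6 was called down in Neurog:WRPW vs. lacZ, as were 97 of the 11822 genes then tested. Calls over all genes ranged from 391 to 922 in Neurog vs. lacZ, 106 to 1071 in Neurog:WRPW vs. lacZ and 827 to 1919 in Neurog vs. Neurog:WRPW when 1 library was left out, against 758, 185 and 1296. The cause of these shifts was not tested. A group left with 1 library was assumed to vary like the others. Counts under an adjusted p of 0.05 were 0, 0 and 5 in those comparisons, 220, 4 and 514 with DESeq2, 157, 2 and 394 with edgeR's exact test, and 31 in Neurog vs. Neurog:WRPW with no filter on low counts. Calls under an adjusted p numbered 0 in Neurog vs. Neurog:WRPW with only those groups or with any 1 library left out.

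The groups share replicate numbers 1 and 2, which the labels tie to no day or batch, so the numbers were not taken to pair the libraries. Differences between replicates 1 and 2 correlated at 0.552 between Neurog and Neurog:WRPW, 0.566 between Neurog and lacZ and 0.62 between Neurog:WRPW and lacZ over 7969 genes. With the replicate block, calls numbered 1409 in Neurog vs. lacZ, 577 in Neurog:WRPW vs. lacZ and 2135 in Neurog vs. Neurog:WRPW, of which 179, 0 and 461 were under an adjusted p of 0.05. Under the block 5 of the 6 genes were called down in Neurog:WRPW vs. lacZ, with *Rgs19/20* at -1.51, *CHRM1/2/4/5* at -1.20 and *HTR2B* at -2.31 added. Over all 12253 genes, 435 were called down there under the block, against 146 without it. *CHRM1/2/4/5* and *Rgs19/20* then passed in both directions, as *Adra2* and *HRH1* did. These 4 genes were under an adjusted p of 0.05 with the block in Neurog vs. lacZ and in Neurog vs. Neurog:WRPW. In Neurog:WRPW vs. lacZ 0 of the 6 were. Counting error is widest for the 0 to 4 counts of *Adra2*, *HTR2B* and the *ADRA2A* match in Neurog:WRPW replicate 2, and the cause of these low counts was not tested.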

Other observations

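Replicate 1 held the higher level in 17 of the 18 pairs formed by the 6 genes and the 3 groups, the exception being *HRH1* in Neurog:WRPW libraries (8.71 CPM in replicate 1 and 9.89 CPM in replicate 2). In 5 of the 6 genes replicate 1 was higher in all 3 groups, which held for 26.2% of all genes tested (3214). The sum of the other in situ BTN genes was also higher in replicate 1 in each group. It was 11687 against 6355 CPM with Neurog, 1398 against 738.2 CPM with Neurog:WRPW, and 2615 against 1533 CPM with lacZ. The sum of genes listed in other parts of the central nervous system was not higher in replicate 1 of lacZ (467 against 470.0 CPM). Over all genes, replicate 1 was higher for 51.3% in Neurog libraries, 52.3% in Neurog:WRPW libraries and 50.9% in lacZ libraries.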
